A study of Mus musculus with 4 samples.

Results

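The spliceosome core was examined as 50 genes, taken from the 18714 genes of the expression table by their symbols: the Snrp and Snrnp genes of the small nuclear ribonucleoproteins (snRNPs), Sf3a and Sf3b, the numbered Prpf genes, Lsm1 to Lsm8, and U2af1 and U2af2. Each symbol had 1 row. By particle they fell into 7 Sm genes, 8 Lsm genes, 6 genes of U1, 13 of U2, 4 of U4/U6, 4 of U5, 3 of the minor U11/U12 snRNP, and 5 further Prp factors. All 50 reached a mean of 10 scaled reads, which are a gene's reads over the size factor the authors gave its library, and were tested.

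The 4 libraries came from mouse embryos of the outbred ICR strain, sampled at the 2-cell stage. In both groups the embryos were Nelfb dTAG/dTAG, so that the controls carried the degron tag too; Nelfb codes for one part of NELF, the negative elongation factor, which holds RNA polymerase II paused near promoters. Zygotes from matings between homozygous animals spent 30 hours in KSOM medium containing 500 nM dTAG-13, which recruits a ubiquitin ligase to the tagged protein, or 0.01% DMSO. Each group had 2 libraries, each a pool of 3 embryos, so that differences between single embryos could not be seen, and the mRNA data do not show how far the protein was depleted.

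Introns are removed by the spliceosome, which is assembled anew on each intron from snRNPs, particles made of a small nuclear RNA and its proteins. U1 recognises the 5′ splice site, U2 binds the branch point, and the U4/U6.U5 tri-snRNP then joins and is rearranged into the catalytic centre. A ring of Sm proteins (B, D1, D2, D3, E, F, G) encircles the RNA of U1, U2, U4 and U5, while a related Lsm2 to Lsm8 ring caps U6. In the oocyte and early embryo, mRNAs for such housekeeping machinery are in part inherited from the egg and in part made anew once the embryonic genome is switched on.

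Depth and identity were checked first. Reads in genes numbered 38112685 and 33897568 for dTAG-13 and 18923479 and 16522506 for DMSO, so that low members were measured with fewer reads in the controls. Nelfb had 63.4 and 35.6 scaled reads with dTAG-13 and 182.5 and 69.8 with DMSO (adjusted p = 0.343, limma), and because the degrader acts on protein this does not check the labels. Of 18 genes marking the 2-cell stage, 16 had a row, summing to 116549 and 118357 scaled reads with dTAG-13 and to 180999 and 168214 with DMSO. These sums hide opposite directions. Usp17lb was the largest term of the treated sums, at 64323 and 53997, and was lower in the controls (33539 and 33824). Tdpoz1 was also higher in the treated pools, and Tdpoz4 overlapped between groups. The other markers lay below both controls, among them Zscan4d, which had 45894 and 44388 in the controls and only 12136 and 16995 after treatment. Cumulus and granulosa markers (7 of 14 with a row) summed to 4939 to 7112 scaled reads with dTAG-13 against 907.4 to 2534 with DMSO. Nr5a2 and Amhr2 made up most of these sums and, like Star, were higher with dTAG-13. Ptx3 went the other way (0 and 0 against 34.8 and 50.3), and Tnfaip6, Vcan and Cyp19a1 overlapped between groups. Oviduct epithelium markers (4 of 6) summed to 7233 to 8283 against 4074 to 4481, mostly from Epcam, and the others of them overlapped between groups. Sperm markers (5 of 10) summed to 103.2 to 172.3 against 103.9 to 284.6, and blood markers (3 of 6) to 201.5 to 202.2 against 1062 to 1066. The part of these differences in the results below was not tested. In a pool, fewer cells of a kind and less RNA per cell cannot be told apart.

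Most of the core was higher in the dTAG-13 libraries, but the particles differed in which genes passed. By limma, with a Benjamini-Hochberg adjustment over all 15978 genes tested and a threshold of 0.05, 9 of the 50 members were higher, 3 were lower and 38 did not pass. The higher members included the U1-specific proteins Snrpa and Snrpc, the U2 proteins Sf3a1, Sf3b1 and Sf3b6, and the Sm gene Snrpb; the 3 lower members were the Sm genes Snrpf and Snrpg and the decay-linked Lsm1. Over all genes tested 8.94% were higher and 9.79% lower, against 18.0% and 6.0% of the members. The share of higher members has to be read with their level: when genes under a mean of 50 were left out, 17.2% of the genes were higher and 16.8% lower, and of the 48 members that remain 9 were higher and 6 lower. On the log2 scale the members had a median of 0.46, and all genes tested one of -0.10. The 2 dTAG-13 values lay above both DMSO values in 29 members (58.0%, against 32.2% of all genes tested) and below both in 11 (22.0%, against 34.5%). Among the 49 members other than Prpf40b, log2 fold changes ran from -2.22 (Lsm3) to 3.45 (Snrnp35).

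**Figure D1:**
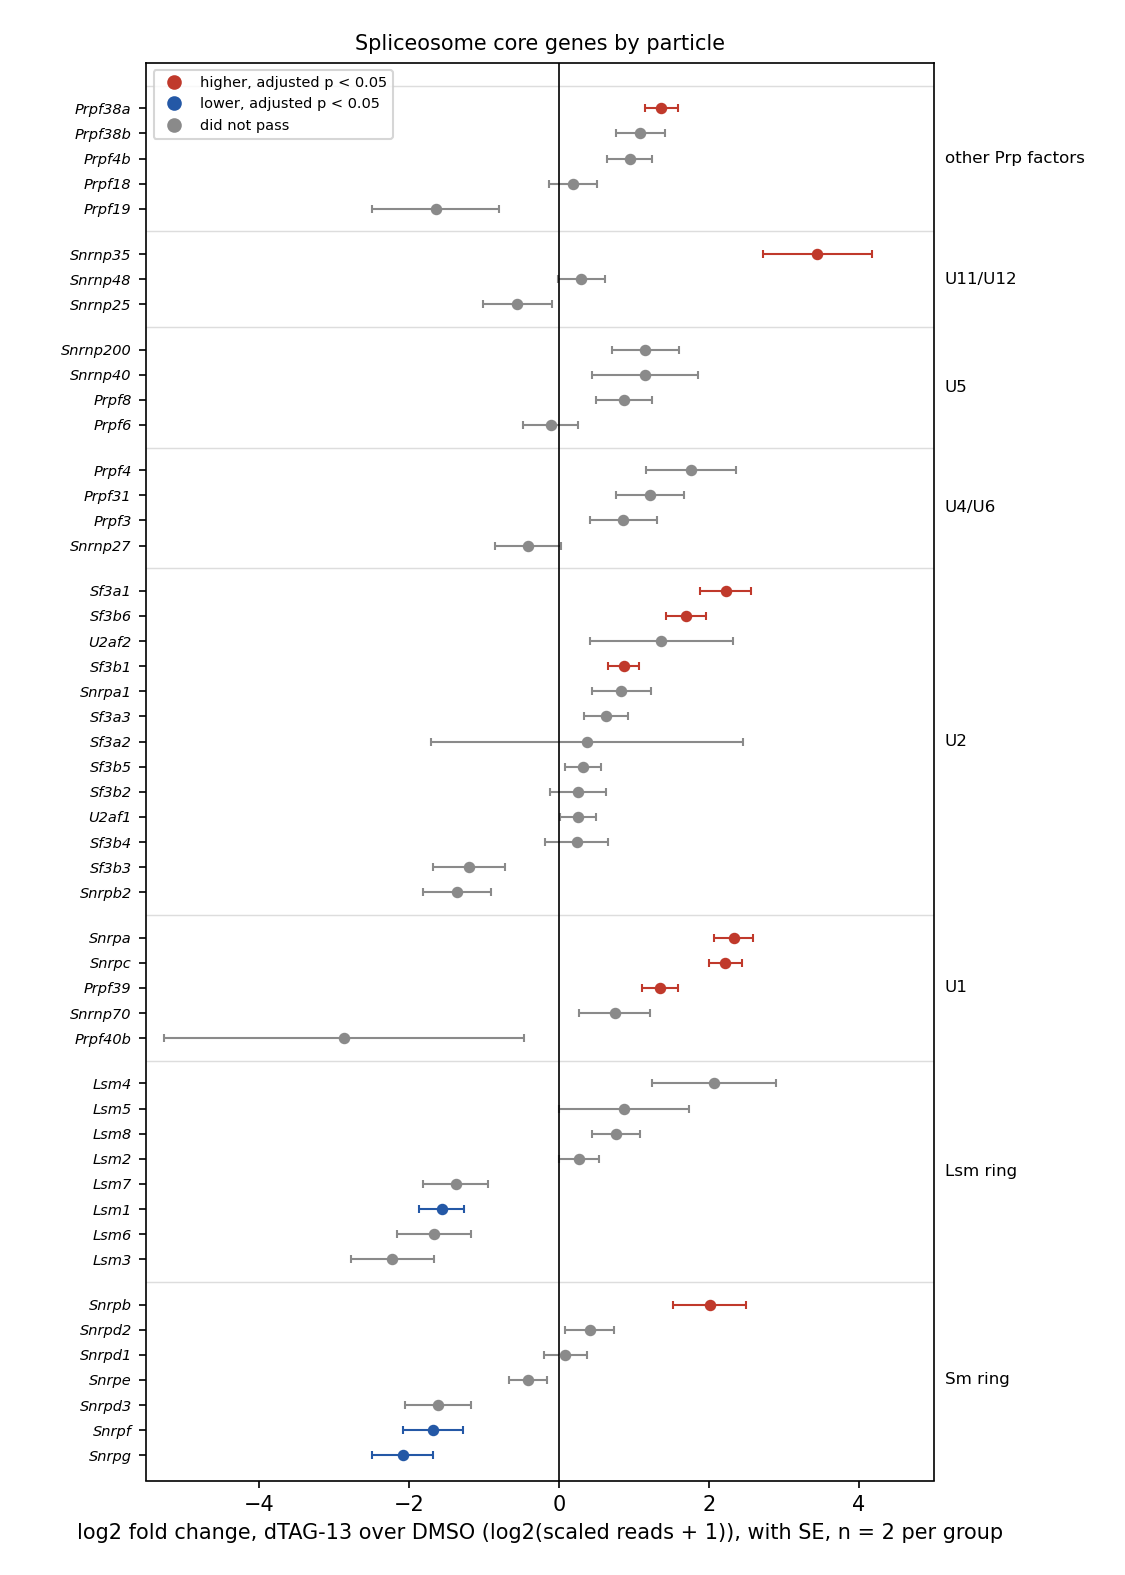
Log2 fold change of 49 of the 50 members (dTAG-13 over DMSO, on the log2(scaled reads + 1) scale, with the standard error of the fit, n = 2 per group), ordered by particle; red marks members higher, blue members lower and grey members that did not pass. The Sm and Lsm genes spread to both sides of 0, while 11 of 13 U2 genes and 4 of the 5 U1 genes shown lie above it. Prpf40b had no read in 3 libraries, and its value depends on the pseudocount.

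These directions are those under the authors' scaling of the libraries. With libraries scaled instead to equal levels of the oocyte transcripts, the middle of all genes shifted on the log2 scale from -0.10 to 2.00, 37 members were higher and 0 lower, where 40.3% of all genes were higher and 2.24% lower. The 3 members called lower then had log2 fold changes of 0.13 (Snrpg), 0.54 (Snrpf) and 0.66 (Lsm1), so that their direction turned. Scaled on the 13 mitochondrially encoded genes, 0 of all genes passed by limma, and before adjustment 20 members had p under 0.05 with higher values and 1 with lower. Of all genes tested, 5565 had p under 0.05 in either direction under that scaling (limma). With the scaling on oocyte transcripts, no member was lower before adjustment either (0 at p under 0.05 by limma), against 8 under the authors' scaling and 8 each with edgeR and DESeq2. Under the authors' scaling, 2978 of all 15978 genes tested had p under 0.05 before adjustment with higher values and 3288 with lower (limma). The calls also needed all 4 libraries: with any 1 library left out, 0 of the 12 calls were kept, and all 12 kept their direction; of all genes, 0 were called without either dTAG-13 library, 2.25% were higher and 4.84% lower without DMSO replicate 1, and 0.294% were higher and 4.15% lower without DMSO replicate 2. With edgeR 6 members were higher and 2 lower, where 6.42% of all genes were higher and 7.17% lower, with DESeq2 12 and 8, where 15.7% and 17.3% were, and without the filter on low values 7 and 2, where 6.49% and 7.18% were. In the authors' deposited table, 9 of the members passed as higher and 4 as lower, at the same threshold, where 7.56% of all listed genes were higher and 8.47% lower, and all 12 limma calls were among them. The fourth lower member there was Snrpd3.

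In U1, the snRNP that finds the 5′ splice site, all members other than Prpf40b had higher values with dTAG-13, and 3 of 6 passed. Snrpc (ENSMUSG00000024217.9, chr17:27838150-27851968 in GRCm38), whose zinc finger protein steadies the pairing of U1 RNA with the splice site, had 23072 and 26215 scaled reads with dTAG-13 and 4881 and 5690 with DMSO. The groups were far apart and each pair of replicates was close, and Snrpc rose by 2.22 ± 0.22 on the log2 scale (SE, n = 2 per group; adjusted p = 0.0219, limma). Snrpa (ENSMUSG00000061479.15, chr7:27187005-27196271), whose protein binds a loop of U1 RNA, had 12810 and 10067 scaled reads in treated pools and 2398 and 2118 in controls. It rose by 2.33 ± 0.26 (adjusted p = 0.0219, limma), a ratio of group means of 5.07. Prpf39 (ENSMUSG00000035597.18, chr12:65036333-65063386), related to a yeast U1 protein, had 7852 and 7706 scaled reads against 3323 and 2782 and rose by 1.35 ± 0.24 (adjusted p = 0.0297, limma). Its exons overlap those of the antisense gene Fkbp3, and in unstranded libraries reads of the overlap cannot be assigned.

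The U1 protein that organises the particle did not pass. Snrnp70, which binds the first stem loop of U1 RNA, had 609.6 and 413.5 scaled reads with dTAG-13 and 357.8 and 249.98 with DMSO, so the groups were apart by little (log2 fold change 0.75 ± 0.47, adjusted p = 0.296, limma). Prpf40b had 32 reads in DMSO replicate 2 and 0 in the other 3 libraries, where up to 3 reads are allowed by counting error, and no fold is given. With Prpf40b set at its bound the U1 median remained 1.05 and that of all members 0.46. Per kilobase of exon, the level of Snrpc was 3779 ± 341 scaled reads (SD, n = 2) with dTAG-13 and 810.5 ± 87.6 with DMSO, and that of Snrpa was 3859 ± 654 and 761.9 ± 66.7. On that scale the pair was level with each other in each group, while Snrnp70 stood at means of 67.2 and 39.9.

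**Figure D2:**
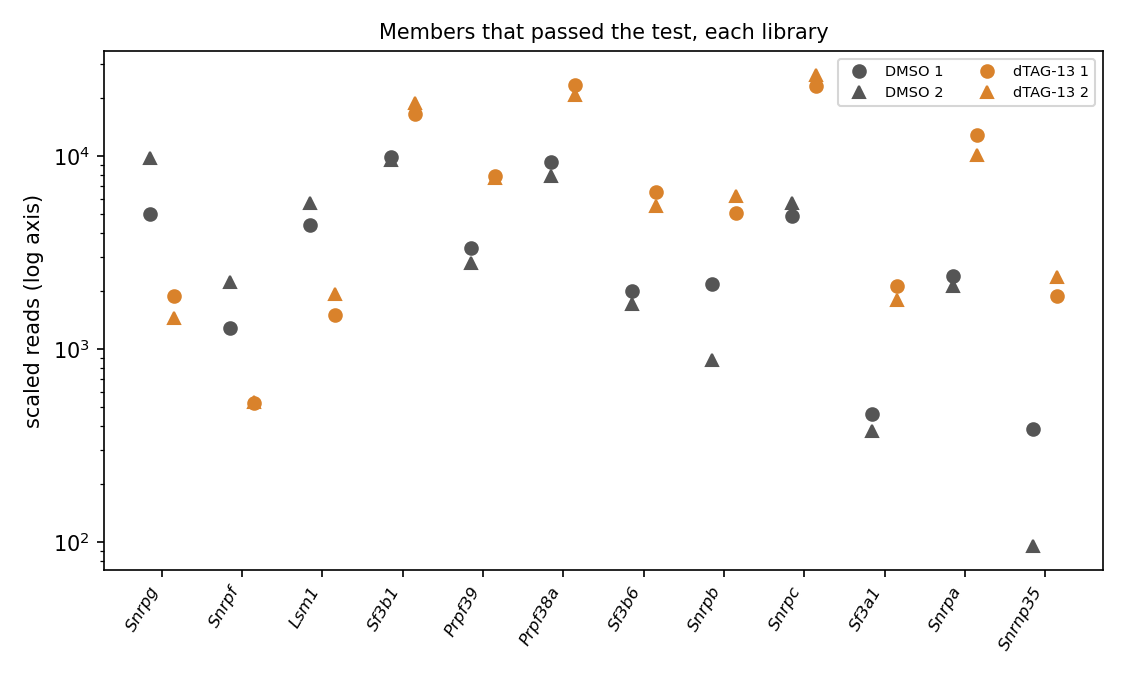
Scaled reads in each library (log axis) for the 12 members that passed the test, ordered by log2 fold change; grey marks DMSO, orange dTAG-13, circles replicate 1 and triangles replicate 2. The groups are separate for every gene shown, and for Snrpg, Snrpf, Snrpb and Snrnp35 the DMSO replicates are spread more widely than the dTAG-13 replicates.

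The Sm ring, shared by U1, U2, U4 and U5, was split: of its 7 genes 1 was higher and 2 lower, and the other 4 had no call. Its median was -0.41 on the log2 scale. Snrpb (ENSMUSG00000027404.15, chr2:130171414-130179403), which encodes SmB, had 5066 and 6191 scaled reads with dTAG-13 and 2173 and 883.1 with DMSO. It rose by 2.01 ± 0.49 (adjusted p = 0.0490, limma), from control values that differed 2.46-fold between the DMSO replicates; it did not pass with edgeR (adjusted p = 0.0705). Snrpd3, whose protein pairs with SmB before the ring closes, went the other way, with 478.3 and 509.8 scaled reads against 1092 and 2096. Both DMSO values exceeded both dTAG-13 values, but the log2 fold change of -1.61 ± 0.44 did not pass (adjusted p = 0.0609, limma). Within a library, where scaling cancels out, there were 10.6 and 12.1 reads of Snrpb per read of Snrpd3 with dTAG-13 and 1.99 and 0.421 with DMSO.

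Snrpd1 and Snrpd2, which encode the D1 and D2 pair, did not pass. Snrpd1 had 4005 and 3917 scaled reads with dTAG-13, inside the DMSO values of 3121 and 4443 (0.09 ± 0.29). Snrpd2 had 1329 and 1059 against 923.4 and 858.7 (0.41 ± 0.33, adjusted p = 0.393). Their ratio within a library, 3.01 and 3.70 with dTAG-13 and 3.38 and 5.17 with DMSO, overlapped between groups.

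Snrpe, Snrpf and Snrpg encode the proteins that form the E, F and G subcomplex, and all 3 lay lower in both dTAG-13 libraries than in both controls. Of all genes tested, 34.5% did so. Snrpg (ENSMUSG00000057278.8, chr6:86371304-86379328) had 1882 and 1443 scaled reads with dTAG-13 and 4983 and 9792 with DMSO, and fell by 2.08 ± 0.41 on the log2 scale (adjusted p = 0.0338, limma). Snrpf (ENSMUSG00000020018.6, chr10:93583029-93589706) had 527.5 and 532.8 against 1287 and 2221, and fell by 1.67 ± 0.40 (adjusted p = 0.0481, limma; 0.0510 with edgeR). Snrpe had 3890 and 3705 against 4467 and 5688, a smaller difference that did not pass (-0.41 ± 0.26, adjusted p = 0.294). For Snrpg, Snrpf, Snrpe and Snrpd3 it was DMSO replicate 2 that lay farthest from the treated pools. Of the other members below both controls, the same held for Lsm1, Lsm3, Lsm6, Lsm7 and Snrpb2, and not for Sf3b3 and Prpf19. Snrpf overlaps the antisense gene Ccdc38, itself lower with dTAG-13 (log2 fold change -2.28 ± 0.46, adjusted p = 0.0357, limma). Snrpf has 861 exonic bases, and its overlaps with Ccdc38 and with a further antisense gene add up to 735 bases. Bases that overlap both genes are counted for each, so 735 is an upper bound on the bases shared. Per kilobase of exon Snrpg was the highest ring gene with DMSO (4705 ± 2166, SD, n = 2) and Snrpe the next (3701 ± 629), whose spreads overlapped. The lengths include bases that Snrpf and Snrpd3 share with antisense genes, where reads cannot be assigned. Their effect on the order was not tested. With dTAG-13 Snrpb (2848 ± 403) and Snrpe (2768 ± 95.4) were the highest and did not differ beyond their spread, and Snrpg stood at 1059 ± 198. Snrpd3 was at 143.5 ± 6.5 with dTAG-13, the lowest of the ring.

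**Figure D3:**
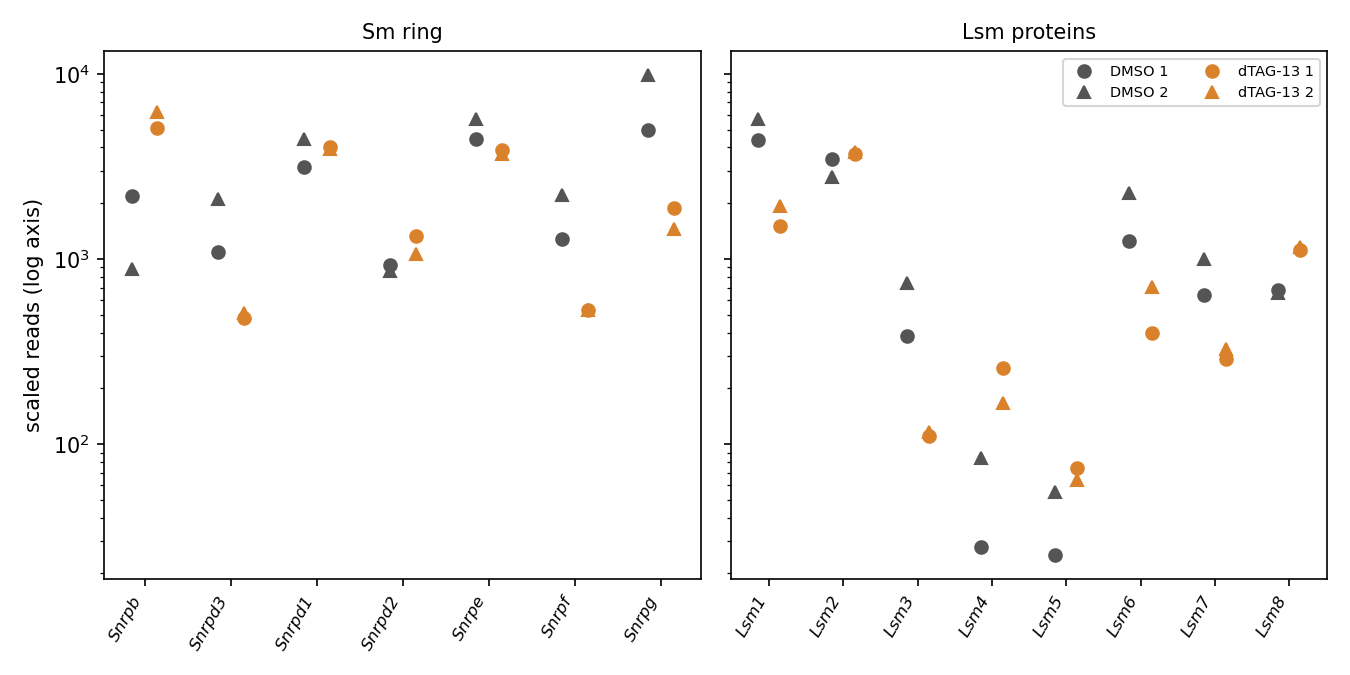
Scaled reads in each library (log axis) for the 7 Sm genes, with partners side by side, and for the 8 Lsm genes; grey marks DMSO, orange dTAG-13, circles replicate 1 and triangles replicate 2. Snrpb lies above its controls and Snrpd3, Snrpf and Snrpg below theirs, and among the Lsm genes Lsm1, Lsm3, Lsm6 and Lsm7 lie below their controls while the other 4 lie above.

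The Lsm genes were divided in the same manner, and the groups did not overlap for any of the 8. With 2 libraries against 2 this is common: the groups did not overlap in 10665 of all 15978 genes tested. In the main limma fit under the authors' scaling (pseudocount 1, mean of at least 10, no replicate block), Lsm1 (ENSMUSG00000037296.6, chr8:25785288-25803975) was the 1 of them that passed. Its protein takes the place of Lsm8 in a cytoplasmic ring that promotes decapping and decay of mRNA. Lsm1 had 1497 and 1926 scaled reads with dTAG-13 and 4414 and 5688 with DMSO, and fell by 1.56 ± 0.30 (adjusted p = 0.0321, limma). Lsm8, which is particular to the nuclear ring on U6, had 1113 and 1158 against 683.3 and 655.8 (0.76 ± 0.32, adjusted p = 0.151). Reads of Lsm8 per read of Lsm1 were thus 0.744 and 0.601 with dTAG-13 and 0.155 and 0.115 with DMSO.

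Among the Lsm proteins common to both rings, 3 had lower values and 3 higher. Lsm3 had 110.7 and 116.5 scaled reads with dTAG-13 and 381.9 and 741.8 with DMSO (-2.22 ± 0.56, adjusted p = 0.0523), Lsm6 398.7 and 708.5 against 1249 and 2266 (-1.66 ± 0.49, adjusted p = 0.0726), and Lsm7 288.0 and 327.1 against 635.2 and 999.9 (-1.37 ± 0.43, adjusted p = 0.0827; all limma). These 3 did not pass in the main limma fit and passed with DESeq2. Lsm3 also passed by limma with a pseudocount of 10 (adjusted p = 0.0421). At a mean of at least 50 and with a replicate block, Lsm3 and Lsm6 both passed by limma. Lsm2, the most abundant of the Lsm genes with dTAG-13, had 3664 and 3764 against 3446 and 2755 (0.27 ± 0.26). Lsm4 had 256.9 and 167.4 against 27.6 and 84.4 (2.08 ± 0.83, adjusted p = 0.133), and Lsm5 74.6 and 64.2 against 25.2 and 55.2. The control values of Lsm4 and Lsm5 rested on 23 and 52 and on 21 and 34 reads, so that both were measured coarsely.

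Of 13 members in U2, 3 were higher by limma, 0 lower and 10 without a call. The median was 0.38, which is the value of Sf3a2, a gene with few reads. It was 0.48 at a mean of at least 50, which leaves Sf3a2 out. Before adjustment 3 higher and 1 lower had p under 0.05, and edgeR called 2 higher and 0 lower and DESeq2 3 higher and 1 lower. Of all 15978 genes tested, 2978 higher and 3288 lower had p under 0.05 before adjustment (limma). Sf3a1 (ENSMUSG00000002129.11, chr11:4160350-4182541), which holds the SF3A complex to U2, had 2124 and 1805 scaled reads with dTAG-13 and 461.1 and 378.2 with DMSO. It rose by 2.23 ± 0.34 (adjusted p = 0.0244, limma). Sf3a3, its partner, had 4043 and 2993 against 2441 and 2068 (0.63 ± 0.29, adjusted p = 0.180). The remaining SF3A gene, Sf3a2, had 107 and 2 reads with dTAG-13 and 18 and 2 with DMSO, so that replicates differed more than groups, and its exons overlap the antisense gene Plekhj1.

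In SF3B, the complex that clamps the branch helix, the most abundant subunit passed. Sf3b1 (ENSMUSG00000025982.13, chr1:54985169-55027481), the scaffold around the branch point, had 16490 and 18744 scaled reads with dTAG-13 and 9843 and 9477 with DMSO. It rose by 0.86 ± 0.21 (adjusted p = 0.0481, limma; 0.0646 with edgeR). Sf3b6 (ENSMUSG00000037361.7, chr12:4817544-4827659), a small protein held by Sf3b1 near the branch adenosine, had 6538 and 5497 against 1995 and 1706 and rose by 1.70 ± 0.26 (adjusted p = 0.0249, limma). Sf3b3, a large propeller protein, had 273.7 and 218.3 against 721.7 and 435.0 (-1.19 ± 0.48, adjusted p = 0.136). There were 23.9 and 25.2 reads of Sf3b6 per read of Sf3b3 with dTAG-13 and 2.76 and 3.92 with DMSO. Sf3b3 shares exonic bases with the antisense gene Cog4, which was higher with dTAG-13 (2.72 ± 0.46, adjusted p = 0.0272, limma). Sf3b2, Sf3b4 and Sf3b5 had log2 fold changes between 0.24 and 0.32 and did not pass.

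The RNA-binding pair of U2 also diverged in value without passing. Snrpa1 had 5909 and 10192 scaled reads with dTAG-13 and 5505 and 3445 with DMSO (0.83 ± 0.39, adjusted p = 0.185). Snrpb2, which binds U2 RNA together with the Snrpa1 protein, had 655.6 and 503.5 against 1057 and 2065 (-1.36 ± 0.46, adjusted p = 0.0935). For the U2 auxiliary factor, which marks the 3′ splice site, U2af1 had 4421 and 4995 against 4151 and 3732 (0.26 ± 0.24), and U2af2 had 69.0 and 153.4 against 67.2 and 22.7 (1.37 ± 0.95). In neither was the difference larger than the error of the fit allowed at the threshold.

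None of the 4 U4/U6 and 4 U5 members passed by limma under the authors' scaling, although most values were higher with dTAG-13. Nhp2l1, a tri-snRNP partner outside the symbol rule, did pass and is given with the other splicing genes. At an unadjusted p under 0.05 the 4 U4/U6 genes included 2 higher and 0 lower, and the 4 U5 genes 1 higher and 0 lower. At that p, 2978 of all 15978 genes tested were higher and 3288 lower (limma). With DESeq2 1 U4/U6 gene and 0 U5 genes passed, and with edgeR 0 of both. Of U4/U6, Prpf4 had 1001 and 886.4 scaled reads against 463.5 and 165.6 (1.76 ± 0.60, adjusted p = 0.0965), and its binding partner Prpf3 had 916.9 and 1847 against 670.1 and 764.6 (0.86 ± 0.45). Prpf31, which binds the U4 stem loop, had 1359 and 761.5 against 380.7 and 504.8 (1.21 ± 0.45, adjusted p = 0.116), and 984 of its exonic bases overlap the antisense gene Gm15927. Snrnp27, the most abundant of the 4 in the controls, had 1204 and 1363 against 1188 and 2437.

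Of U5, Prpf8, the protein that cradles the catalytic RNA, had 836.0 and 759.5 scaled reads with dTAG-13 and 483.9 and 389.6 with DMSO (0.87 ± 0.37, adjusted p = 0.152). Snrnp200, the helicase that unwinds U4 from U6, had 509.4 and 407.3 against 196.9 and 211.0 (1.16 ± 0.45, adjusted p = 0.125). Their ratio within a library, 0.609 and 0.536 reads of Snrnp200 per read of Prpf8 with dTAG-13, lay close to the 0.407 and 0.542 of the DMSO libraries. Snrnp40, a repeat protein bound to Prpf8, had 2079 and 1656 against 1678 and 415.6, and Prpf6, which bridges U5 to U4/U6, had 600.3 and 590.0 against 570.4 and 722.4. In these 2 genes the groups overlapped.

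**Figure D4:**
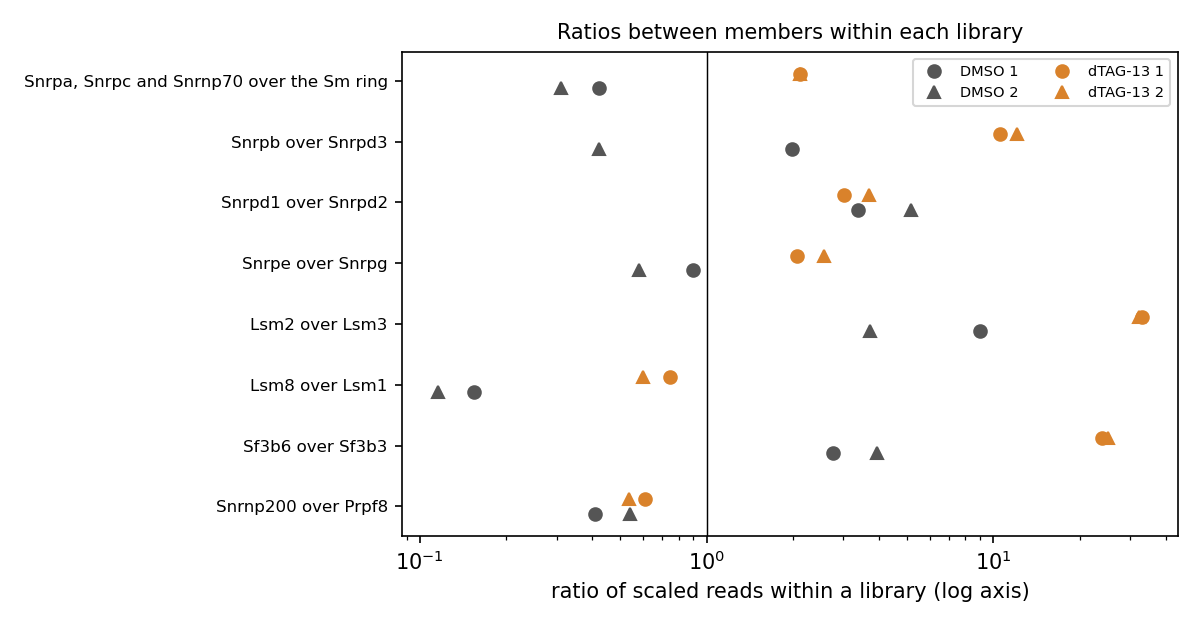
Ratio of scaled reads between members within each library (log axis), which no scaling of libraries can change; grey marks DMSO, orange dTAG-13, circles replicate 1 and triangles replicate 2. Snrpa, Snrpc and Snrnp70 together, mostly Snrpa and Snrpc, stand at 2.12 and 2.11 reads per read of the Sm ring with dTAG-13. With DMSO they stand at 0.423 and 0.310. The ratios of Snrpd1 to Snrpd2 overlap between groups and those of Snrnp200 to Prpf8 lie close together.

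Set against one another, the particles differed in their summed levels. Summed over their genes, the U1 list had 52446 and 53074 scaled reads with dTAG-13 and 18584 and 15462 with DMSO, whereas the Sm ring had 17176 and 17357 against 18047 and 25980 and the Lsm genes 7403 and 8231 against 10863 and 13246. U2 summed to 46168 and 50530 against 31146 and 27407. The U1-specific proteins Snrpa, Snrpc and Snrnp70 together had 2.12 and 2.11 reads per read of the Sm ring with dTAG-13 and 0.423 and 0.310 with DMSO. Most of this came from Snrpa and Snrpc. Snrnp70 alone had 0.035 and 0.024 reads per read of the ring with dTAG-13 and 0.020 and 0.0096 with DMSO. Sums follow the longest and most abundant genes, so they were read beside the medians of 1.05 for U1, 0.38 for U2, 1.04 for U4/U6, 1.01 for U5, -0.41 for the Sm ring and -0.55 for the Lsm genes. Single control libraries weighed on some of these: the Sm ring median was -0.23 and that of U5 0.43 without DMSO replicate 2, and that of U2 was 0.75 without DMSO replicate 1. At a mean of at least 50, which leaves out Sf3a2 and Prpf40b, the medians of U2 and U1 were 0.48 and 1.35. The ratios were chosen after the values were seen, and with 2 libraries against 2 an exact permutation test cannot give a two-sided p below 0.333, so the difference between particles carries no test.

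The minor U11/U12 snRNP, which splices a rare class of introns, held the member with the largest fold change. Snrnp35 (ENSMUSG00000029402.8, chr5:124483134-124491124), its counterpart of Snrnp70, had 1885 and 2370 scaled reads with dTAG-13 and 386.7 and 95.8 with DMSO. It rose by 3.45 ± 0.73 (adjusted p = 0.0385, limma; 0.0542 with edgeR), and the lower control value rested on 59 reads. Snrnp48 had 1082 and 1081 against 867.0 and 889.5 (0.30 ± 0.31), and Snrnp25 had 692.3 and 484.7 against 1144 and 629.8. Neither of these passed.

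Of the further Prp factors, Prpf38a (ENSMUSG00000063800.5, chr4:108563172-108579336), needed when the assembled spliceosome is activated, had 23373 and 20760 scaled reads with dTAG-13 and 9263 and 7874 with DMSO. It rose by 1.37 ± 0.22 (adjusted p = 0.0256, limma) and, after Snrpc, had the highest mean of the core in the treated pools. Its relative Prpf38b had 1318 and 1189 against 568.0 and 610.3 (1.09 ± 0.33, adjusted p = 0.0758), and the kinase Prpf4b had 1835 and 1714 against 955.9 and 887.9 (0.94 ± 0.30, adjusted p = 0.0829). Prpf18, a second-step factor, had 1452 and 1382 against 1062 and 1450. Prpf19, the ubiquitin ligase that names a complex of the catalytic spliceosome, had 65.9 and 23.7 scaled reads against 136.9 and 115.3 (-1.64 ± 0.85, adjusted p = 0.216).

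Where reads could be confused with those of other genes, the counts were looked at apart. A search of GENCODE M21 transcripts found for 23 members another gene with at least 95% identity over 100 bases or with overlapping exons. Of these 23, 3 were higher and 2 lower, and 9 (39.1%) lay below their controls in both treated libraries, which 34.5% of all genes tested did. Of the 27 members without such a copy or overlap, 6 were higher, 1 (Lsm1) was lower, and 2 (7.41%, Lsm1 and Snrpb2) lay below. The shares called are to be read against 8.94% higher and 9.79% lower over all genes. The values of all 23 may hold reads of other genes, which was not tested. The 9 below their controls were Snrpg, Snrpf, Snrpd3, Snrpe, Lsm3, Lsm6, Lsm7, Sf3b3 and Prpf19. The 3 called higher were Snrpc, with a match of up to 430 bases, Snrpa, with one of up to 855, and Prpf39. Snrpa also shares 327 exonic bases with the antisense gene BC024978. Exonic length was set beside the fold changes: across the 50 members, which are not independent, Spearman's rho between length and log2 fold change was 0.22, and across 15917 genes it was -0.0012. The 10 members up to 2 kb long had a median of -0.41 with 4 of them positive, the 17 of 2 to 4 kb one of 0.27, the 17 of 4 to 8 kb one of 0.87 with 14 positive, and the 6 longer ones one of 0.69. All genes of those lengths had medians of -0.20, 0.09, -0.05 and -0.38, so the shortest members lay lowest where all genes showed no such order.

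Promoter windows from RefSeq (GRCm38.p6, 250 bases before to 50 after the start) were matched for 40 members by symbol. The ETS-type motif CCGGAAG, searched on both strands, was in 17 of 40 (42.5%), against 17.9% of 10846 tested genes with a window and 9.93% of all 27025. It was in 3 of 8 members that were higher and 1 of 2 that were lower. With only 2 lower members matched, this cannot show whether its presence follows direction. CACGTG was in 4 of the 40 (against 11.1% of tested genes), TATAAA in 3 (7.5%, against 10.1%) and CCAAT in 16 (40.0%, against 43.9%). A match describes letters and is not a bound site. The windows around CCGGAAG in members that passed are shown to let their flanks be compared. They read 5′ to 3′ on the strand that spells the motif, which is in capitals. The start is that of RefSeq, and for all members shown it lies inside the GENCODE span given above.
Snrpc, chr17:27840038-27840064, plus strand, 39 bases before the start: agggcagaggCCGGAAGcggaagtcct
Sf3a1, chr11:4160337-4160363, plus strand, 7 bases before the start: gagggcgggaCCGGAAGtgctcccgcg
Sf3b6, chr12:4817528-4817554, plus strand, 70 bases before the start: ggtccgcaatCCGGAAGcgttctggag
Sf3b6, chr12:4817513-4817539, minus strand, 85 bases before the start: ggattgcggaCCGGAAGgggcggggcg
Snrpg, chr6:86371385-86371411, plus strand, 145 bases before the start: ggcgacgcaaCCGGAAGcgtggctctg

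Other genes of splicing were followed in 6 lists of 73 genes, 70 of which were tested. Of these 14 were higher and 3 lower, 53 had no call, and the median was 0.75. That is 20.0% higher and 4.29% lower, against 8.94% and 9.79% of all genes tested, and lists with 1 call are near that background. Factors that build snRNPs had the most calls, 6 higher and 1 lower of 14: Snupn, the import adaptor for capped snRNPs, rose by 2.16 ± 0.25, from 1697 and 1630 to 7968 and 6985 scaled reads (adjusted p = 0.0219, limma), and Gemin5, which picks out snRNAs for the SMN complex, rose by 2.65 ± 0.34 (adjusted p = 0.0219). Gemin8 was the 1 assembly factor that fell, with 22.4 and 23.7 against 171.7 and 238.6 scaled reads, and was named after its values were seen. Of 7 partners of U1, 2 were higher and 0 lower by limma (6 and 0 before adjustment): Tial1 rose by 2.85 ± 0.36 and Rbm25 by 1.61 ± 0.29. Sf1, which marks the branch point before U2, rose by 1.79 ± 0.34 and was the 1 call among 9 partners of U2. Nhp2l1, which binds U4 RNA, rose by 1.34 ± 0.19 and was the 1 call among 11 tri-snRNP partners. Of 23 genes of the Prp19 complex and catalytic core, 4 were higher and 2 lower; Crnkl1 rose by 2.18 ± 0.38 and Bcas2 fell by 1.77 ± 0.27. Of 6 partners of U11/U12, 0 passed by limma, and before adjustment 1 had p under 0.05 with higher values and 0 with lower. The unadjusted counts are to be read against 2978 higher and 3288 lower of all 15978 genes tested (limma).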

How the data were processed

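RNA was measured in 4 pools of mouse embryos. Per the labels' protocols, unstranded libraries of polyadenylated RNA were made with the SMART-seq v4 kit. Per the submitters' processing notes, HTSeq, DESeq, Picard and bcl2fastq were used with build mm10; the aligner is not given in the sources used here. Values in the deposited table are a signal: the reads of a gene over a size factor of its library. In the authors' deposited table, log2 ratios and p-values compare treated with DMSO. Every value was a whole multiple of the smallest in its column, which gave back whole reads for 100% of them (tolerance 1e-04 reads).

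Values were transformed to log2(scaled reads + 1), genes whose mean reached 10 were kept, and groups were compared with limma 3.58.1 (lmFit and eBayes with a trend, R 4.3.3), two-sided, adjusted over all 15978 genes; fold changes on this scale understate those of low genes. Recovered reads were tested with edgeR 4.0.16 (TMM) and DESeq2 1.42.0, and fits were tested on simulated data. Members and lists were chosen with earlier results of these data known. Named are members that passed or whose groups did not overlap, the most abundant of each particle, and up to 2 called genes of each other splicing list; further genes are described after their values were seen. The values of 1 member of U1 are not reported here, though it is counted. Positions and exonic lengths come from GENCODE M21 (GRCm38, the assembly of mm10). No source says whether pools had separate parents or days, so p-values measure the spread between pools, which may be technical. Limits from 3 reads cover counting error.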

Additional observations from a re-analysis of the deposited data

How the results depend on the processing

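Scaling decided the directions most. With libraries scaled on oocyte transcripts, 37 members were higher and 0 lower, 59 other splicing genes were higher and 0 lower, and 6434 of all genes were higher and 358 lower; scaled on mitochondrially encoded genes, each of these counts was 0. The members' median was then 2.68 and 1.41. Medians under these 2 scalings were 1.81 and 0.54 for the Sm ring and 1.66 and 0.39 for the Lsm genes, both turned in sign, 3.26 and 1.99 for U1, 2.54 and 1.27 for U2, 3.25 and 1.98 for U4/U6, 3.22 and 1.96 for U5, 2.51 and 1.25 for U11/U12, and 3.16 and 1.89 for the further Prp factors. On oocyte transcripts the log2 fold change turned positive for Lsm6 (0.55), Lsm1 (0.66), Lsm7 (0.84), Snrpg (0.13), Snrpf (0.54), Snrpd3 (0.60), Snrpe (1.81), Snrnp25 (1.66), Snrpb2 (0.85), Sf3b3 (1.02), Snrnp27 (1.81), Prpf6 (2.10) and Prpf19 (0.54), and on mitochondrial genes for Snrpe (0.54), Snrnp25 (0.39), Snrnp27 (0.54) and Prpf6 (0.84). The cause was not tested.

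Lower members numbered 5 with a pseudocount of 10, where 12.3% of all genes were lower. They numbered 6 at a mean of at least 50 and 8 with DESeq2, where 16.8% and 17.3% were. Other splicing genes higher numbered 23 at a mean of at least 50, where 17.2% of all genes were higher. DESeq2 called 27 other splicing genes higher and 5 lower, and 2406 of all genes higher and 2650 lower (15.7% and 17.3%). The members' median was 0.57 at a mean of at least 50 and 0.57 with edgeR; that of U1 was 1.35 at a mean of at least 50, and with edgeR those of U2, U4/U6 and U11/U12 were 0.67, 1.14 and 0.33, and with DESeq2 those of U2 and U4/U6 were 0.64 and 1.10. With a replicate block 6 members were lower and 23 other splicing genes higher, where 11.5% of all genes were lower and 11.6% higher. Across genes, same-numbered libraries did not deviate together (correlation -0.0142). Each group offers a single difference between its libraries, so this value cannot decide whether the numbers pair the samples. edgeR kept 8 of the 12 calls and the fit without a filter 9.

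With each library left out in turn, members higher stayed at 0 to 0 and members lower at 0 to 1 (Prpf40b, without DMSO replicate 1), other splicing genes higher at 0 to 1 and lower at 0 to 0, and all genes higher at 0 to 360 and lower at 0 to 773; the lone library of a group is then assumed to vary like the other group. The members' median ran from 0.35 to 0.67, that of U1 from 0.86 to 1.24, U2 from 0.25 to 0.75, U4/U6 from 0.89 to 1.08, U5 from 0.43 to 1.13 and U11/U12 from 0.28 to 0.32, and that of the Sm ring from -0.58 without DMSO replicate 1 to -0.23 without DMSO replicate 2. Members whose sign turned had ranges of -0.17 to 0.34 (Snrpd1), -0.10 to 0.58 (Sf3b4), -2.03 to 2.79 (Sf3a2), -0.93 to 0.11 (Snrnp27), -0.28 to 0.061 (Prpf6) and -0.033 to 0.42 (Prpf18).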

Other observations

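Genes related to the core that the symbol rule does not take in were also measured, and are named after their values were seen. Snrpn, whose protein can replace SmB in the ring, had 2061 and 2678 scaled reads with dTAG-13 and 3535 and 3185 with DMSO (log2 fold change -0.51 ± 0.28, adjusted p = 0.236, limma). Reads of Snrpb per read of Snrpn were 2.46 and 2.31 with dTAG-13 and 0.615 and 0.277 with DMSO. U2af1l4, a paralogue of U2af1, had 809.3 and 658.3 scaled reads against 2231 and 3430 and fell by 1.92 ± 0.36 (adjusted p = 0.0314, limma).

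The U7 snRNP, which trims the ends of histone mRNA, carries Lsm10 and Lsm11 in its ring. Lsm11 had 4.35 and 15.3 scaled reads with dTAG-13 and 147.7 and 176.9 with DMSO (-4.12 ± 1.00, adjusted p = 0.0497, limma), while Lsm10 had 2131 and 2176 against 1407 and 1716 (0.47 ± 0.29). Of the copies of members with a row, some followed the parent gene and some did not. Gm8186, similar to Snrpg, had 262.5 and 140.2 scaled reads against 712.1 and 1438, and Gm2991, similar to Snrpc, had 273.1 and 292.2 against 76.9 and 64.9, each on the side of its parent. Gm10232, similar to U2af1, had 389.4 and 463.1 against 659.3 and 508.1, the opposite side to U2af1, and Gm10146 (similar to Lsm7) and Gm7935 (similar to Sf3b4) overlapped between groups. Whether reads of these copies came from the parent genes was not tested.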
